A study of Mus musculus with 8 samples.

Results

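The galectin genes Lgals1, Lgals3, Lgals8 and Lgals9 were followed in long-term haematopoietic stem cells (LT-HSC) from mouse bone marrow, as 4 of 29915 genes measured on the arrays. The members were chosen by name, with earlier results of these arrays known, and a gene with several probe sets is represented by the one with the highest mean over the 8 arrays. Each of the 4 members had 1 probe set, so no measured value decided which probe set was used. A probe set is the group of short DNA probes on the array that reads out 1 transcript, and its value is its brightness on the log2 scale, on which a difference of 1 is a doubling. Probe sets differ in brightness for equal amounts of RNA, so differences are given between arrays for the same gene. Percentiles within an array and positions against the array median describe brightness. They do not rank genes by their amount of RNA.

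Galectins are lectins that bind β-galactoside sugars on glycoproteins. They are made in the cytosol and leave the cell by a route that bypasses the classical secretory pathway. Outside the cell they cross-link glycosylated receptors, and inside it several of them bind glycans that become exposed when endosomes or lysosomes are damaged. Galectin-1, encoded by Lgals1, is the prototype form and works as a homodimer. Galectin-3 is the chimera form, which oligomerises through an N-terminal tail and is also known as the macrophage antigen Mac-2. Galectin-8 and galectin-9 are tandem-repeat forms, which join different carbohydrate recognition domains by a linker. In bone marrow, galectin-1 from stromal cells is a known ligand of the pre-B cell receptor.

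The 8 arrays fall into 4 groups of 2: CD169DTR/+ mice given 2 Gy of total body irradiation, CD169DTR/+ mice that were not irradiated, WT mice given 2 Gy, and non-irradiated WT mice. CD169DTR/+ mice carry 1 allele that expresses a receptor for diphtheria toxin from the CD169 (Siglec1) locus, which encodes a surface lectin of bone marrow and other tissue macrophages, so that the toxin depletes CD169+ cells. All 4 groups received diphtheria toxin, WT included, and after 72 h each mouse was irradiated or sham-treated. LT-HSC were sorted 5 days later as lineage-negative cells positive for cKit, Sca and CD150 and negative for Flk2 and CD48. Each group has an array from each of 2 distinct experiments. The age and sex of the mice and the number of animals behind an array are not given in the sources used here, so p-values measure the spread between these arrays.

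Median values of the arrays lay between 4.76 and 4.93, and arrays of the same group correlated at r = 0.990 to 0.994 across probe sets, against 0.986 to 0.993 between groups. All 10 of the measured LT-HSC and gate genes, among 12 listed, lay above the array median on every array. The array of WT 2 Gy replicate 1 and that of CD169DTR/+ 2 Gy replicate 2 lay farthest from the rest on the first principal components. Siglec1 itself was dim, at 3.86 to 4.12. It marks macrophages and not the sorted cells, so its level does not check the depletion.

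Lgals1 was lowest in non-irradiated WT cells and higher in each of the other groups. Its log2 values were 12.85 and 13.38 in CD169DTR/+ LT-HSC after 2 Gy, against 12.43 and 12.58 in non-irradiated CD169DTR/+ LT-HSC. In WT LT-HSC they were 12.71 and 12.70 after 2 Gy, against 11.03 and 11.42 without irradiation. Within both genotypes the irradiated and non-irradiated arrays did not overlap. With 2 arrays per group such separation is a weak criterion. Its share over all probe sets was not counted, here or for the pairs of groups and other genes below. Both non-irradiated WT arrays lay below all 6 others. A pattern of that last kind, with both WT non-irradiated arrays below all 6 others, was met by 6.28% of the 30294 probe sets tested. Lgals1 was also among the brighter probe sets, between the 91.0 and 95.9 percentiles of its array, and its span of 2.35 over the 8 arrays exceeded that of 98.5% of all probe sets.

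**Figure D1:**
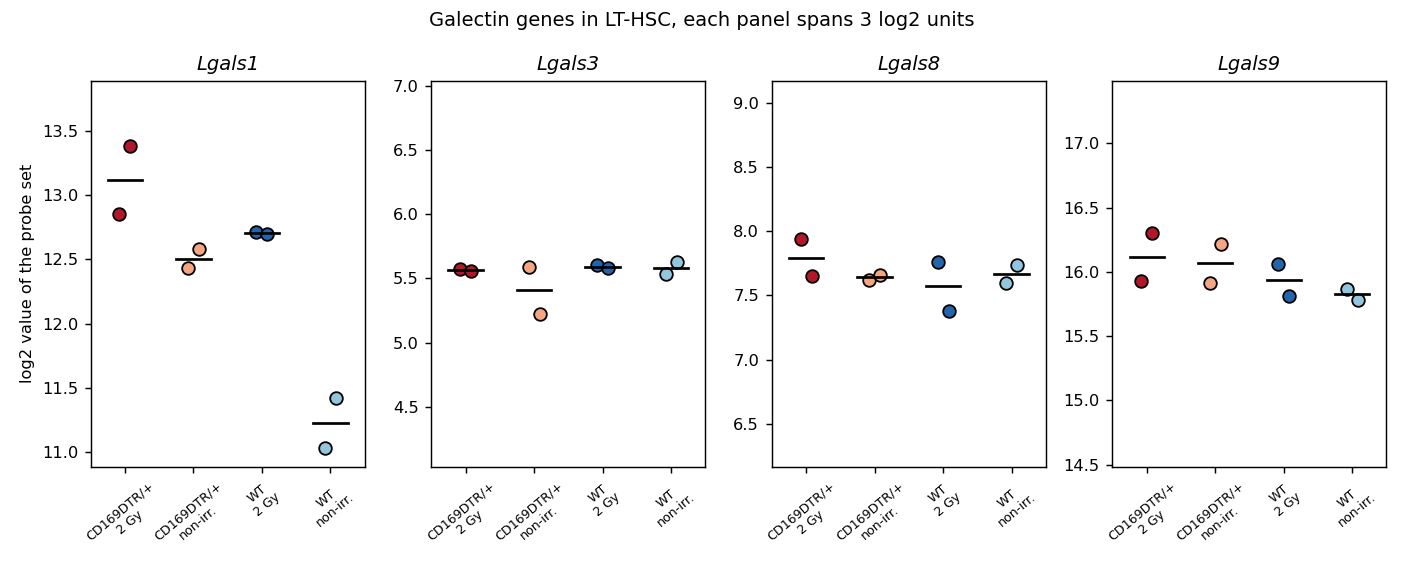
Log2 values of Lgals1, Lgals3, Lgals8 and Lgals9 (y axis) in the 4 groups (x axis). Points are arrays, the bar is the mean of the 2 arrays of a group, and every panel spans 3 log2 units; Lgals1 covers 2.35 of them, and the other 3 genes cover at most 0.56.

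In CD169DTR/+ mice, Lgals1 averaged 13.1 ± 0.375 after irradiation, against 12.5 ± 0.106 in non-irradiated CD169DTR/+ mice (log2, SD, n = 2 each). The difference was 0.61 on the log2 scale (95% confidence interval 0.10 to 1.12), or 1.53-fold (1.07 to 2.17), beside a gap of 0.53 between the irradiated arrays of that genotype. In the limma fit across 30294 probe sets its unadjusted p was 0.0257 and its adjusted p 0.645, so it did not pass an adjusted p of 0.05, which no probe set (0%) passed in this comparison. Under a looser rule, an unadjusted p under 0.05 with a fold of at least 1.5, Lgals1 was the 1 galectin of 4 that qualified, where 3.58% of all probe sets did. With single arrays left out in turn, Lgals1 missed the looser rule in 3 of 8 cases: without CD169DTR/+ 2 Gy replicate 2 the difference was 0.345 (unadjusted p = 0.142 in limma), without CD169DTR/+ non-irradiated replicate 1 it was 0.535 (unadjusted p = 0.105 in limma) and without replicate 2 of that group 0.685 (unadjusted p = 0.0515 in limma). Since Lgals1 was taken up with earlier results of these arrays known, its p-values describe the fit and are no independent evidence.

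In WT mice, Lgals1 averaged 12.7 ± 0.00707 after irradiation, against 11.2 ± 0.276 in non-irradiated WT mice (log2, SD, n = 2 each). The difference was 1.48 on the log2 scale (SE 0.213, 95% confidence interval 0.97 to 1.99), or 2.79-fold (1.96 to 3.97). It was larger than the gap of 0.39 between the non-irradiated WT arrays. In the limma fit it ranked 23 by p, with an unadjusted p of 0.000289 and an adjusted p of 0.301. It therefore did not pass the adjusted threshold, which 3 probe sets or 0.0099% passed in this comparison: Cdkn1a, a p53-induced cell cycle inhibitor, Mmp2, a matrix metalloproteinase, and Cxcr4, the receptor of the niche chemokine Cxcl12. Lgals1 was again the 1 galectin of 4 under the looser rule, which 3.31% of all probe sets met.

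The difference between the irradiation effects, CD169DTR/+ minus WT, was -0.87 for Lgals1 (SE 0.301, 95% confidence interval -1.59 to -0.15). Its unadjusted p was 0.0248 and its adjusted p 0.917 in limma, and 0% of probe sets passed the adjusted threshold. Lgals1 met the looser rule, as did 4.01% of all probe sets. With single arrays left out in turn the difference kept its sign, and it missed the looser rule in 5 of 8 cases, with unadjusted p-values of 0.0558 to 0.0828.

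After 2 Gy, Lgals1 differed between CD169DTR/+ and WT LT-HSC by 0.41 (95% confidence interval -0.10 to 0.92), or 1.33-fold, with an adjusted p of 0.708 in limma, a comparison in which 0% of probe sets passed the adjusted threshold. None of the 4 galectins met the looser rule there, against 3.56% of all probe sets. The difference was 0.145 without CD169DTR/+ 2 Gy replicate 2 and 0.675 without replicate 1 of that group. Without irradiation, Lgals1 was higher in CD169DTR/+ than in WT LT-HSC by 1.28 (95% confidence interval 0.77 to 1.79), or 2.43-fold (1.71 to 3.46), and the arrays of the genotypes did not overlap. Its unadjusted p was 0.00067 and its adjusted p 0.936 in limma. Again 0% of probe sets passed the adjusted threshold, and 1.89% met the looser rule, Lgals1 among them. These comparisons share their groups: the non-irradiated WT arrays are subtracted both in the WT irradiation difference and in the non-irradiated genotype difference.

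Averaged over both genotypes, irradiated arrays exceeded non-irradiated arrays by 1.04 for Lgals1 (means 12.91 and 11.865), or 2.06-fold (95% confidence interval 1.61 to 2.65). All 4 irradiated arrays lay above all 4 non-irradiated ones, an ordering met by 3.76% of probe sets. The adjusted p was 0.209 in limma. In this comparison 3 probe sets passed, again 0.0099%, namely Cdkn1a, Mmp2 and Phlda3, a p53 target that restrains Akt signalling. The looser rule was met by 1.94% of probe sets and by Lgals1. Averaged over both doses, CD169DTR/+ arrays exceeded WT arrays by 0.85 (means 12.81 and 11.965), or 1.80-fold (1.40 to 2.31), with overlapping arrays and an adjusted p of 0.683 in limma. There 0% passed the adjusted threshold and 1.05% met the looser rule, with Lgals1 again the 1 galectin of 4.

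The order of the Lgals1 group means, from high to low, was CD169DTR/+ 2 Gy, WT 2 Gy, CD169DTR/+ non-irradiated and WT non-irradiated. The neighbours WT 2 Gy and CD169DTR/+ non-irradiated differed by 0.20 (95% confidence interval -0.31 to 0.71), and the interval of the top pair, CD169DTR/+ 2 Gy minus WT 2 Gy, also includes 0. The ends of the order, CD169DTR/+ 2 Gy minus WT non-irradiated, differed by 1.89, or 3.71-fold (2.60 to 5.28).

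**Figure D2:**
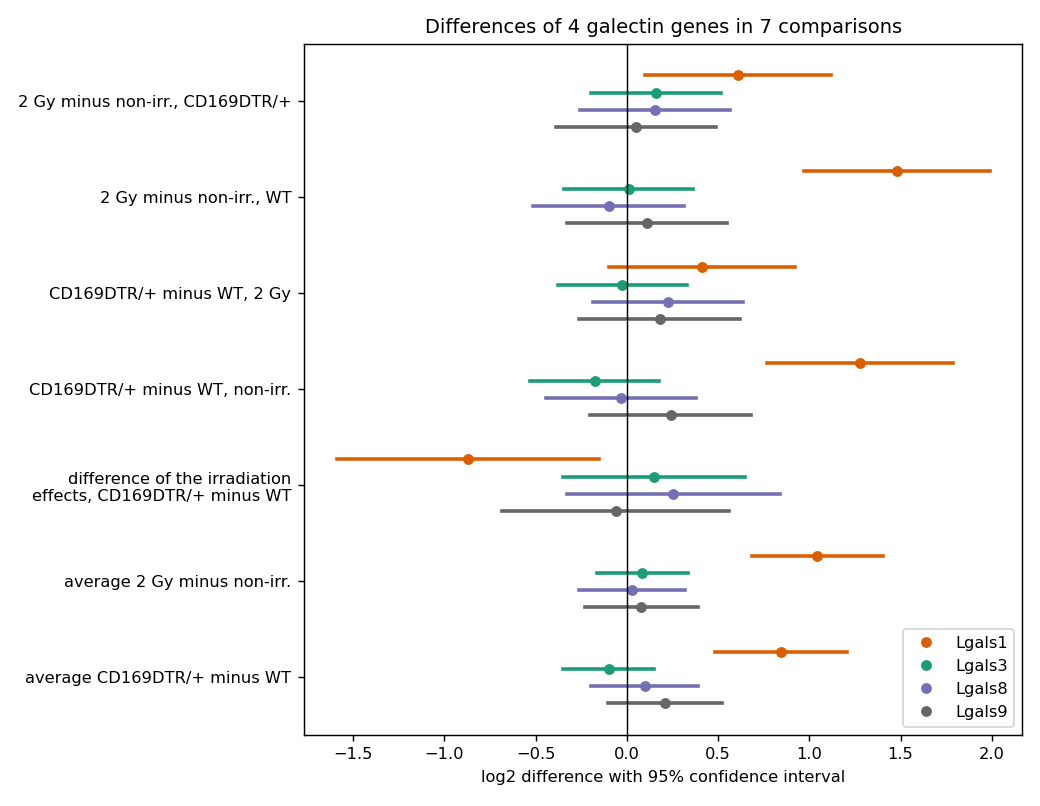
Log2 differences (x axis) of the 4 galectin genes in the 7 comparisons (y axis), with dots for the estimate and lines for the 95% confidence interval of the limma fit. The Lgals1 intervals leave out 0 in 6 of 7 comparisons before adjustment over probe sets, all but CD169DTR/+ minus WT at 2 Gy, while those of Lgals3, Lgals8 and Lgals9 all include 0.

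The chimera galectin Lgals3 stayed within a span of 0.41. Its values were 5.57 and 5.56 in CD169DTR/+ 2 Gy cells, against 5.59 and 5.22 in CD169DTR/+ non-irradiated cells. In WT cells they were 5.60 and 5.58 after 2 Gy, against 5.53 and 5.63 without irradiation. The 1 low array was CD169DTR/+ non-irradiated replicate 2, and the groups overlapped within both genotypes. The irradiation difference was 0.16 in CD169DTR/+ mice (95% confidence interval -0.19 to 0.51) and 0.01 in WT mice (-0.34 to 0.36). The intervals thus leave room for increases of up to 1.43-fold in CD169DTR/+ mice and 1.29-fold in WT mice. At the 54.0 to 57.9 percentiles of its array, Lgals3 lay near the array median.

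Of the tandem-repeat galectins, Lgals8 binds glycans of damaged endosomes and recruits the autophagy receptor Calcoco2 (NDP52), as known in human cells. Lgals8 read 7.94 and 7.65 in CD169DTR/+ 2 Gy cells, against 7.62 and 7.66 in CD169DTR/+ non-irradiated cells. It read 7.76 and 7.38 in WT 2 Gy cells, against 7.60 and 7.74 in WT non-irradiated cells. The arrays of the groups overlapped in all 4 pairwise comparisons. The irradiation difference was 0.155 in CD169DTR/+ mice (95% confidence interval -0.26 to 0.57) and -0.10 in WT mice (-0.51 to 0.31).

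Lgals9 encodes a ligand of the checkpoint receptor Tim-3 (Havcr2), and its probe set was among the brightest, at the 98.3 to 98.8 percentiles of each array. Whether so bright a probe set still follows changes in the amount of RNA was not tested. It read 15.93 and 16.30 in CD169DTR/+ 2 Gy cells, against 15.91 and 16.22 in CD169DTR/+ non-irradiated cells. In WT cells it read 16.06 and 15.81 after 2 Gy, against 15.87 and 15.78 without irradiation. Irradiation differences were 0.05 in CD169DTR/+ mice (95% confidence interval -0.39 to 0.49) and 0.11 in WT mice (-0.33 to 0.55). Both non-irradiated CD169DTR/+ arrays lay above both non-irradiated WT arrays, by 0.24 on average (-0.20 to 0.68), with an adjusted p of 0.999 in limma. None of Lgals3, Lgals8 and Lgals9 met the adjusted or the looser rule in any of the 7 comparisons.

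The rest of the family was measured by 6 of 7 further listed genes, Lgals2, Lgals4, Lgals7, Lgals12, Lgalsl and Grifin, and none of them met either rule in any comparison. On each array 2 or 3 of the 6 lay below the array median, so the lack of calls among the dim ones says little. In WT mice 4 of the 6 were higher and 2 lower after irradiation, with differences of -0.105 to 0.47 and a median of 0.08, beside a median of 0.075 over all probe sets. In CD169DTR/+ mice 2 were higher and 4 lower, at -0.345 to 0.175. The difference of the irradiation effects was negative for all 6, at -0.485 to -0.025, and positive for 41.8% of all probe sets. Its median was -0.235, beside -0.05 over all probe sets. Lgalsl, the galectin-related protein, had values of 6.30 to 7.08. Grifin, a lens galectin-like protein, had the smallest p in WT mice, with 5.38 and 5.31 after 2 Gy, against 4.96 and 5.13 without (unadjusted p = 0.0398, adjusted p = 0.614 in limma). The Lgals1 pseudogene Lgals1-ps1 was looked up after the values were seen. It was dim, at 4.03 to 4.81, and its difference of irradiation effects, -0.66, had the same sign as that of Lgals1 and met the looser rule (unadjusted p = 0.0385, adjusted p = 0.933 in limma). Its sign was also that of Lgals1 for irradiation in WT mice (0.37) and between genotypes without irradiation (0.46). It was opposite for irradiation in CD169DTR/+ mice (-0.29) and between genotypes at 2 Gy (-0.20). Whether its probes share sequence with Lgals1 was not tested.

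Neighbours of Lgals1 on the chromosome were taken in the gene order of the RefSeq table, among protein-coding genes with a tested probe set. The nearest 3 of these before it are Gga1, Sh3bp1 and Pdxp, and the nearest 3 after it are Nol12, Triobp and Ankrd54. In WT mice the irradiation differences of these 6 genes ran from -0.69 to 0.025, beside 1.48 for Lgals1. Gga1, a clathrin adaptor of the trans-Golgi network, met the looser rule, and it was lower after irradiation.

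The genes whose values were closest to those of Lgals1 across the 8 arrays, after each gene was centred on its mean and genes with only a predicted name were passed over, were Scarna10, Ttk, Ska3, Cip2a and Mospd1. Closeness is the root mean square difference between the centred log2 values, which was 0.228 for Scarna10, a small Cajal body RNA, and 0.368 to 0.380 for the other 4. The median over 30293 probe sets was 0.722 and the first percentile 0.535. Scarna10 read 5.45 and 5.64 in CD169DTR/+ 2 Gy cells, against 5.20 and 5.19 in CD169DTR/+ non-irradiated cells, and 5.60 and 5.61 in WT 2 Gy cells, against 4.01 and 4.36 in WT non-irradiated cells. Ttk is a kinase of the spindle checkpoint, Ska3 is a subunit of a complex at the kinetochore and Cip2a is an inhibitor of the phosphatase PP2A. Mospd1 encodes a protein with a motile sperm domain. For all 5 genes both non-irradiated WT arrays were the lowest of the 8, a feature of Lgals1 that their selection by closeness favours. All 5 share the same 8 libraries with Lgals1, and their likeness is a description.

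**Figure D3:**
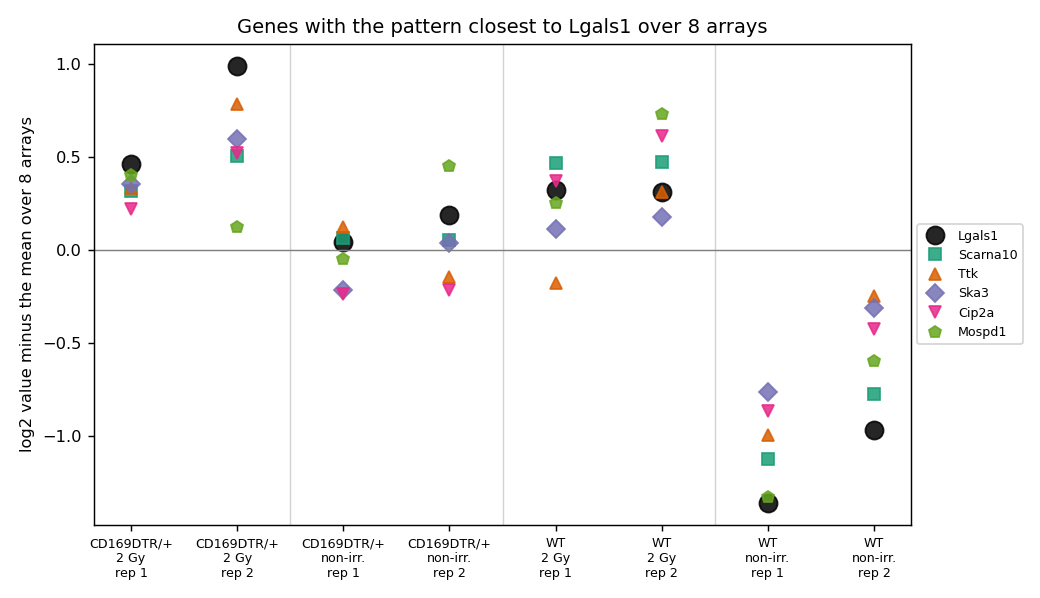
Log2 values minus the mean over 8 arrays (y axis) for Lgals1 and the 5 named genes closest to it, in each array (x axis). Black circles are Lgals1. Both WT non-irradiated arrays are below 0 for all 6 genes, of which 5 were selected for closeness to Lgals1.

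In bulk samples, less RNA per cell and fewer cells of a type cannot be told apart, which holds for every difference given here. Markers of other blood cells also varied between the groups. The 17 markers of neutrophils and granulocyte-monocyte progenitors averaged 7.90 and 7.39 in CD169DTR/+ 2 Gy arrays, against 7.57 and 8.26 in CD169DTR/+ non-irradiated arrays. They averaged 8.06 and 8.52 in WT 2 Gy arrays, against 6.64 and 7.48 in WT non-irradiated arrays. Of the 17, 7 were higher and 1 was lower under the looser rule after irradiation of WT mice, where 3.31% of all probe sets met that rule, and none passed the adjusted threshold. The median difference of the list was 0.965, beside 0.075 over all probe sets. S100a8, a calcium-binding protein of neutrophils, read 12.25 and 13.31 in WT 2 Gy cells, against 6.74 and 10.38 in WT non-irradiated cells. Between 1 and 6 of the 17 lay below the array median. CD169DTR/+ 2 Gy replicate 2, the array with the highest Lgals1, had the second lowest mean of this list. The part of these markers in the Lgals1 difference was not tested.

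Cd48, the surface antigen that the sort selects against, had the same order of group means as Lgals1. It read 13.47 and 13 in CD169DTR/+ 2 Gy cells, against 11.05 and 12.54 in CD169DTR/+ non-irradiated cells. In WT cells it read 12.95 and 12.14 after 2 Gy, against 11.24 and 10.98 without irradiation. The arrays were separate within both genotypes, and Cd48 met the looser rule in both, with differences of 1.44 in CD169DTR/+ mice (adjusted p = 0.644 in limma) and 1.435 in WT mice (adjusted p = 0.582 in limma). The list of lineage and gate markers that holds Cd48 has 6 measured genes, and its mean lay between 7.31 and 7.69 on the 8 arrays. The looser rule was met by 3.58% of all probe sets in CD169DTR/+ mice and 3.31% in WT mice. Under it 1 of the 6 measured genes, Cd48, was higher and 1 lower in each genotype. The lower one was Flt3 (Flk2), which the sort also selects against. Flt3 read 5.85 and 6.48 in CD169DTR/+ 2 Gy cells, against 7.37 and 8.22 in CD169DTR/+ non-irradiated cells. In WT cells it read 6.45 and 6.65 after 2 Gy, against 7.99 and 7.12 without irradiation. The part of Cd48-expressing cells in the Lgals1 difference was not tested.

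The 18 monocyte and macrophage markers averaged 5.86 and 5.81 in CD169DTR/+ 2 Gy arrays, against 5.88 and 5.61 in CD169DTR/+ non-irradiated arrays, and 6.11 and 5.99 in WT 2 Gy arrays, against 5.73 and 5.76 in WT non-irradiated arrays. Of these, 10 to 12 lay below the array median, among them Csf1r, the macrophage growth factor receptor, at 4.12 to 4.84. Others were bright: Lyz2 (lysozyme) read 13.51 to 14.0. Ly6c2, an antigen of inflammatory monocytes, was the 1 gene of this list to meet the looser rule for irradiation in either genotype. It read 13.48 and 13.09 in CD169DTR/+ 2 Gy cells, against 12.29 and 12.34 in CD169DTR/+ non-irradiated cells, a difference of 0.97 with an adjusted p of 0.73 in limma. In WT cells it read 13.62 and 14.90 after 2 Gy, against 12.50 and 12.09 without irradiation, a difference of 1.965 with an adjusted p of 0.398 in limma. The part of these markers in the Lgals1 difference was not tested either. The 12 megakaryocyte markers stood highest in WT 2 Gy replicate 1, at 10.6, against 9.05 to 9.94 in the other 7 arrays. After irradiation 10 were higher and 2 lower in WT mice, and 8 higher and 4 lower in CD169DTR/+ mice. Median differences were 0.625 and 0.395, beside 0.075 and 0.035 over all probe sets. Under the looser rule 3 were higher in WT mice and 1 in CD169DTR/+ mice, beside 3.31% and 3.58% of all probe sets, and 0 were lower. The part of the megakaryocyte markers in the Lgals1 difference was not tested. The 12 mast cell, basophil and eosinophil markers averaged 6.96 and 6.655 in CD169DTR/+ 2 Gy arrays, against 5.64 and 6.015 in CD169DTR/+ non-irradiated arrays. In WT they averaged 6.31 and 6.63 after 2 Gy, against 6.68 and 5.97 without irradiation. After irradiation 3 of the 12 were higher under the looser rule in CD169DTR/+ mice and 0 in WT mice, beside 3.58% and 3.31% of all probe sets. Their part in the Lgals1 difference was not tested. The 10 LT-HSC genes averaged between 9.54 and 10.1 and were lowest in CD169DTR/+ 2 Gy replicate 2. With that array and WT 2 Gy replicate 1 both left out, the irradiation difference of Lgals1 was 0.345 in CD169DTR/+ mice and 1.475 in WT mice.

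**Figure D4:**
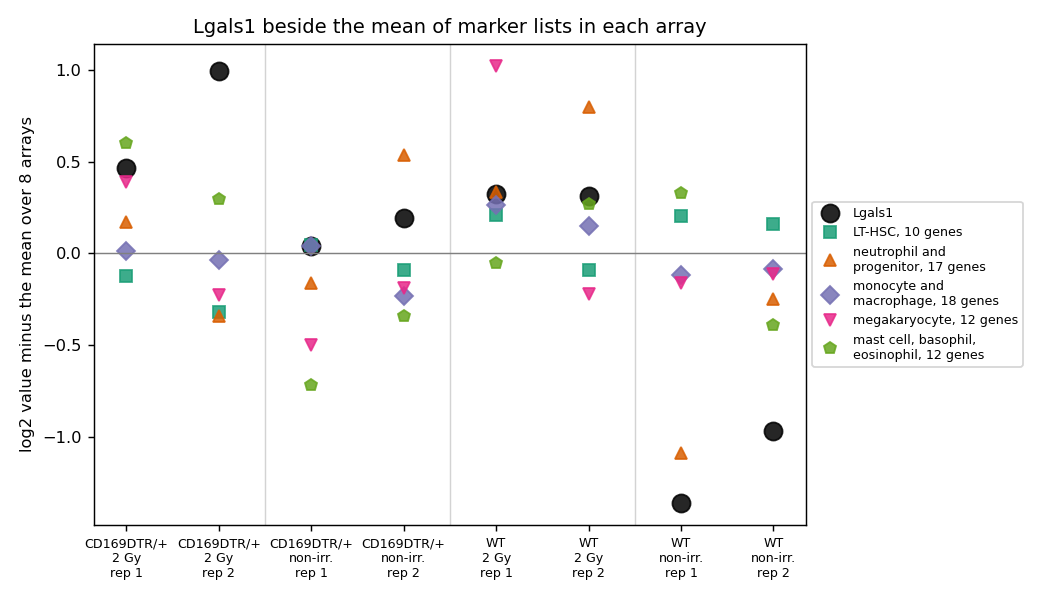
Lgals1 (black circles) and the means of 5 marker lists in each array (x axis), as log2 values minus the mean over 8 arrays (y axis). The neutrophil and progenitor list and Lgals1 are both lowest in WT non-irradiated replicate 1, while in CD169DTR/+ 2 Gy replicate 2 Lgals1 is at its highest and that list is below 0.

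Galectins act through the glycoproteins they bind, the enzymes that build their sugar ligands and the proteins that answer lysosome damage with them. Over 4 lists of such genes plus the other galectins, 89 genes were measured, and none passed the adjusted threshold in any comparison. Under the looser rule, 1 was higher and 4 lower after irradiation of CD169DTR/+ mice (5.62%, beside 3.58% of all probe sets). In WT mice 2 were higher and 5 lower (7.87%, beside 3.31%). For the difference of the irradiation effects 3 were higher and 3 lower (6.74%, beside 4.01%). Between genotypes the shares were 3.37% after 2 Gy, beside 3.56%, and 3.37% without irradiation, beside 1.89%. For the averaged effects they were 5.62% for irradiation, beside 1.94%, and 2.25% for genotype, beside 1.05%. The listed genes were not matched to all probe sets in brightness. On each array 0 of 26 lysosome damage genes, 3 or 4 of 27 enzymes and 6 to 8 of 24 binding partners lay below the array median. The part of brightness in these shares was not tested.

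Among the enzymes, B4galt1 adds the galactose that galectins recognise. It read 8.58 and 8.95 in CD169DTR/+ 2 Gy cells, against 8.94 and 8.83 in CD169DTR/+ non-irradiated cells, which overlap. It read 8.46 and 8.35 in WT 2 Gy cells, against 9.49 and 9.64 in WT non-irradiated cells, which do not. The WT difference was -1.16 (SE 0.157) and the difference of the irradiation effects 1.04, with adjusted p-values of 0.301 and 0.836 in limma. In WT non-irradiated cells B4galt1 was thus highest and Lgals1 lowest of the 4 groups.

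Fut8 adds core fucose to N-glycans. It read 8.10 and 8.12 in CD169DTR/+ 2 Gy cells, against 9.05 and 8.88 in CD169DTR/+ non-irradiated cells. It read 7.47 and 7.75 in WT 2 Gy cells, against 8.46 and 8.41 in WT non-irradiated cells. The irradiated arrays were lower in both genotypes, by 0.84 on average (SE 0.0974, log2), with an adjusted p of 0.209 in limma. Mgat4a, which starts a further N-glycan branch, read 6.72 and 6.53 in CD169DTR/+ 2 Gy cells, against 6.83 and 7.40 in CD169DTR/+ non-irradiated cells. In WT cells it read 6.90 and 6.92 after 2 Gy, against 6.2 and 6.45 without irradiation, a difference of 0.585. The difference of the irradiation effects for Mgat4a was -1.08, with an adjusted p of 0.874 in limma.

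Among binding partners at the cell surface or outside the cell, 24 genes were measured. Alcam (CD166), an adhesion molecule and galectin-8 ligand, read 7.89 and 7.63 in CD169DTR/+ 2 Gy cells, against 8.94 and 8.66 in CD169DTR/+ non-irradiated cells. In WT cells it read 8.41 and 8.72 after 2 Gy, against 9.28 and 9.13 without irradiation. The 4 irradiated arrays were lower by 0.84 on average (SE 0.124, log2), without overlap within either genotype, at an adjusted p of 0.209 in limma. Eng (endoglin), a TGF-β co-receptor, read 10.51 and 10.86 in CD169DTR/+ 2 Gy cells, against 10.82 and 11.06 in CD169DTR/+ non-irradiated cells, and 10.15 and 9.79 in WT 2 Gy cells, against 11.36 and 10.73 in WT non-irradiated cells. Itgal, the α chain of the integrin LFA-1, differed the other way, with 6.95 and 6.92 in CD169DTR/+ 2 Gy cells, against 6.02 and 5.67 in CD169DTR/+ non-irradiated cells (adjusted p = 0.544 in limma). In WT cells Itgal read 6.74 and 6.12 after 2 Gy, against 6.07 and 5.58 without irradiation. Lgals3bp, a secreted glycoprotein that binds galectins, read 11.84 and 11.53 in WT 2 Gy cells, against 12.07 and 12.19 in WT non-irradiated cells, a difference of -0.445 with an adjusted p of 0.566 in limma. In CD169DTR/+ cells Lgals3bp read 11.92 and 11.97 after 2 Gy, against 12.28 and 12.17 without irradiation. That difference was -0.28, with an adjusted p of 0.812 in limma.

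**Figure D5:**
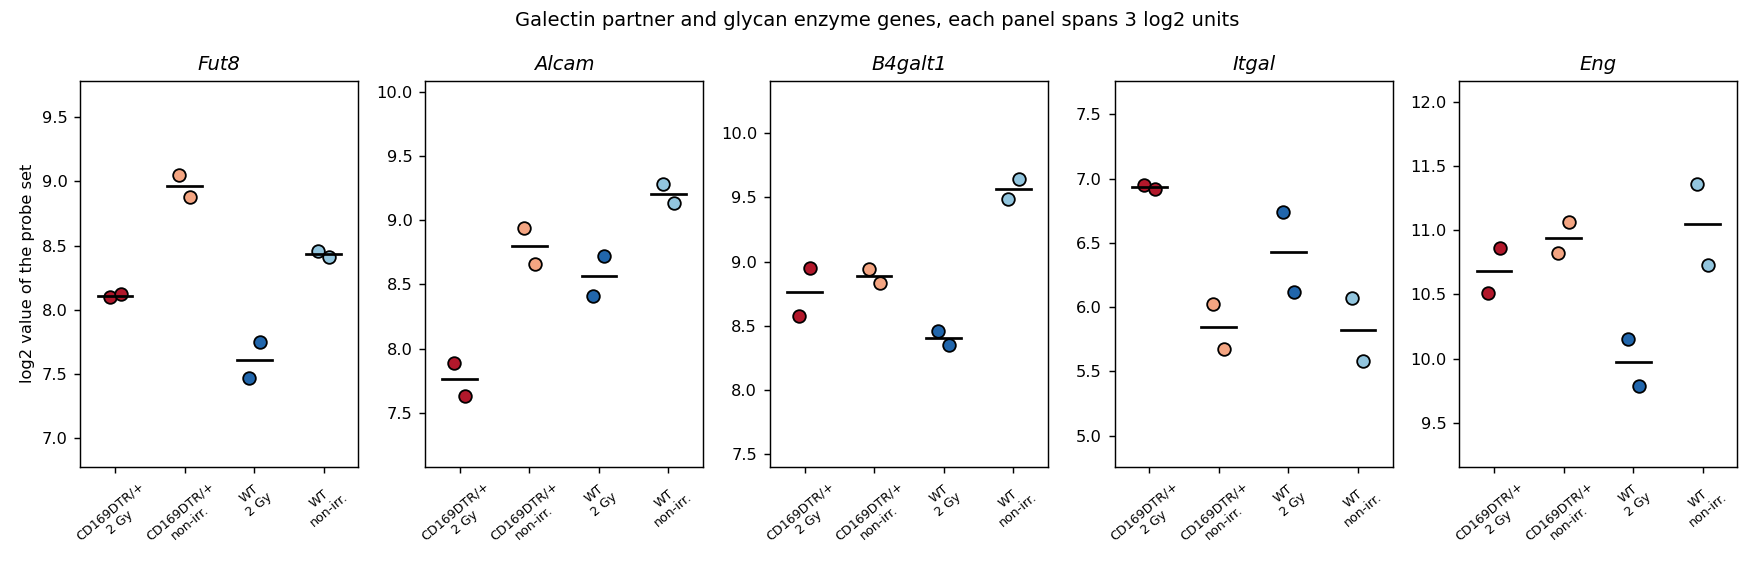
Log2 values (y axis) by group (x axis) of the 5 partner and enzyme genes that met the looser rule for the irradiation effect averaged over both genotypes, a rule that 1.94% of all probe sets met. Points are arrays, bars are means of 2 arrays, and every panel spans 3 log2 units; Fut8, Alcam, B4galt1 and Eng have lower irradiated means in both genotypes and Itgal has higher ones.

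Of 26 measured genes of the lysosome damage response, 2 met the looser rule after irradiation of WT mice, as did 3.31% of all probe sets. Sqstm1, the autophagy receptor p62, was lower by 0.61 on the log2 scale, with an adjusted p of 0.508 in limma, and Chmp4b, a subunit of the ESCRT-III membrane repair machinery, was higher by 0.865, with an adjusted p of 0.567 in limma. Rragc, a GTPase that ties the lysosome to mTORC1, was higher by 1.475 in non-irradiated CD169DTR/+ than in non-irradiated WT cells, with an adjusted p of 0.937 in limma. After 2 Gy the genotype difference of Rragc was -0.14. Among 6 measured intracellular partners, Nras was higher by 0.605 in CD169DTR/+ than in WT cells after 2 Gy, with an adjusted p of 0.619 in limma. Without irradiation Nras overlapped between the genotypes, with 11.70 and 11.38 in CD169DTR/+ cells, against 11.59 and 11.49 in WT cells.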

How the data were processed

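Biotin-labelled cDNA of total RNA was prepared with an Affymetrix kit and hybridised to arrays, per the labels' protocols, and the authors deposited a table of RMA values, per the submitters' processing notes. The deposited values were taken as log2, the convention of RMA, although the table does not state the base; they were used unchanged. Platform annotation gave 30294 of 40161 probe sets 1 symbol, 2145 several and 7722 none; RefSeq (GRCm38.p6) Entrez IDs updated 827 symbols.

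Group means were fitted with limma 3.58.1 (lmFit, eBayes; R 4.3.3), with 4 residual and 2.59 prior degrees of freedom, two-sided tests and Benjamini-Hochberg adjustment over all 30294 within each of 7 comparisons. The procedure was tested on simulated data. Members and lists were chosen with earlier results of these data known. In the 5 galectin lists, the genes named came from the 3 smallest p-values of a list in a comparison; genes like Lgals1 were the 5 with the smallest root mean square difference. Alternatives covered normalisation, filters, variance models, single arrays left out, a replicate block and the looser call rule. The number of arrays limits precision. Deviations of equal replicate numbers correlated at -0.0877 to 0.159, and 1 of 6 pairs of groups exceeded 0.1. No strong shared shift thus followed the replicate numbers, which does not show that the arrays are unpaired. The main fit left the experiment out, and the replicate block was run as an alternative.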

Additional observations from a re-analysis of the deposited data

How the results depend on the processing

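No galectin of the 4 passed an adjusted p of 0.05 in limma under any of 17 alternatives. In 116 values for Lgals1 its direction was kept, while the other 3 kept theirs in 318 of 348. Under the looser rule, added after seeing the data, the count of members called became 1 in 6 comparisons, all but CD169DTR/+ minus WT at 2 Gy, where it was 0. With 1 array left out in turn, the Lgals1 difference ran from 0.345 to 0.875 for irradiation in CD169DTR/+, 1.285 to 1.675 for irradiation in WT, 0.145 to 0.675 between genotypes at 2 Gy, 1.085 to 1.475 between genotypes without irradiation and -1.135 to -0.605 for the difference of irradiation effects. With the replicate number as a block, Lgals1 differed by 0.61 in CD169DTR/+ (adjusted p = 0.561 in limma) and 1.48 in WT (adjusted p = 0.412 in limma), and no galectin was called; over all probe sets the count called in WT was 1, against the 3 reported, and that of the averaged irradiation effect was 3 in both. Over all probe sets the count called in WT, 3 as reported, ran from 0 to 16, and that of the averaged irradiation effect, 3 as reported, from 1 to 12; the other 5 were 0 as reported and reached at most 5 for irradiation in CD169DTR/+, 11 for genotype at 2 Gy, 6 for genotype without irradiation, 7 for the difference of irradiation effects and 4 for genotype on average. The cause was not tested. The mean of all probe sets of a gene was not run, since each member has 1, and fitting only the groups compared does not apply to the 3 comparisons that use all 4 groups. Having 2 arrays per group limits the precision.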
